A study of Mus musculus with 2 samples.

Results

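The 8 genes described here encode the GDNF family receptors and ligands and were followed in 2 single-cell RNA libraries of mouse embryos: the receptor *Ret*, the coreceptors *Gfra1*, *Gfra2*, *Gfra3* and *Gfra4*, and the ligands *Gdnf*, *Nrtn* and *Artn*. They were picked by symbol, and all 8 of 8 were found among the 33207 counted genes. The cells came from *Egr2-Cre*; *R26-Tomato* embryos, in which Cre driven by *Egr2* (also called Krox20, a gene of the boundary caps at the nerve roots) permanently switches on Tomato. Tomato-positive cells were sorted from pooled meninges, dorsal root ganglia and nerve roots, with 1 library of 1 pooled litter at E11.5 and 1 at E12.5. Both libraries carry the same alleles, there was no control genotype, and the Tomato label marks the progeny of *Egr2* cells rather than cells that still express it.

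GDNF, neurturin and artemin are secreted survival and guidance factors of the peripheral nervous system. Each binds a lipid-anchored coreceptor (GFRA1 for GDNF, GFRA2 for neurturin, GFRA3 for artemin, and GFRA4 for persephin), and the pair recruits the receptor tyrosine kinase RET, which carries the signal into the cell. GFRA1 can also work without RET, with the adhesion molecule NCAM1 as its partner, and free coreceptor on one cell can present ligand to RET on a neighbouring cell. In the peripheral nervous system *Ret* and the coreceptors are known from subsets of sensory and autonomic neurons, and glia of the nerve are a known source of GDNF.

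The question here was how receptor and coreceptors were split between glia and neurons of the traced lineage, and which cells held ligand transcripts. Glia were taken as cells with 1 or more UMIs (transcript molecules) of *Sox10*, a transcription factor of neural crest and glia, and none of *Isl1*. Neurons were taken as cells with *Isl1*, a transcription factor of sensory neurons, and none of *Sox10*. After filtering, E11.5 had 413 cells in the *Sox10* gate and 203 in the *Isl1* gate, with medians of 12526 and 11595 UMIs per cell. E12.5 had 1213 and 1337 cells, with medians of 6088 and 6475. A further 104 and 286 cells had both genes, and 113 and 660 had neither. The gates matched other markers, since all 12 remaining glial markers were higher in the *Sox10* gate and all 18 remaining neuronal markers in the *Isl1* gate, at both stages. By unsupervised clusters, 412 of 413 and 1162 of 1213 cells of the *Sox10* gate were glia-like, and 182 of 203 and 1220 of 1337 cells of the *Isl1* gate were neuron-like. The submitters label the cells as boundary cap cells, but in the *Sox10* gate *Egr2* was detected in 103 of 413 and 192 of 1213 cells, and the boundary cap gene *Prss56* in 116 and 375.

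With 1 library per stage there was no replicate and no test. Levels are given as CPM (UMIs of a gene in 1000000 UMIs of the group of cells, from 3' end counts that do not scale with transcript length), with exact Poisson 95% intervals in brackets. Shares of cells have exact binomial 95% intervals and ratios of CPM exact conditional intervals. All of them cover counting error only. The stages also differ in litter and library, and these cannot be told apart.

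*Gfra1*, *Gfra2* and *Gfra3* were all higher in glia, *Gdnf* was found almost only there, and *Ret* was hardly detected in either kind of cell. To show where these genes start, the 250 bases before the transcription start of the coreceptor genes *Gfra1* and *Gfra2* are printed here 5′ to 3′ on the strand of the gene (GRCm39, GENCODE M39). Capitals mark ACAAAG or ACAATG, or their reverse complements, the core motif of Sox factors such as SOX10.
*Gfra1* (chr19:58444347-58444596, minus strand): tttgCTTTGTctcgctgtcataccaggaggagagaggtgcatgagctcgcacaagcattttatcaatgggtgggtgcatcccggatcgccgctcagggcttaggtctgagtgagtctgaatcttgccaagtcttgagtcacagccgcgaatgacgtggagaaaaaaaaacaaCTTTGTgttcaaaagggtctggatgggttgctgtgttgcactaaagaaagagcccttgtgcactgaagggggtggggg
*Gfra2* (chr14:71127222-71127471, plus strand): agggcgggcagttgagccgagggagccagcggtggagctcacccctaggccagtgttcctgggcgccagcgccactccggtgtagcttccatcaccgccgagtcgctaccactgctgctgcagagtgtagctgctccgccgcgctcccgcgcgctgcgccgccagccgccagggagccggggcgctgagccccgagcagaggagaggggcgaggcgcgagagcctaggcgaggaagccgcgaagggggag
The *Gfra1* window held 2 matches, 246 and 78 bases before the start, and the *Gfra2* window none. Of 21770 promoter windows of this length, 23.7% held at least 1 such match, and a match is a description of the sequence only.

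The receptor came first. *Ret* (chromosome 6, 118128706 to 118174769, minus strand, protein coding) gave 3 UMIs over all E11.5 barcodes and 2 over those of E12.5. In the *Isl1* gate it was found in 0 of 203 E11.5 cells, which allows up to 1.80%, and in 0 of 1337 E12.5 cells, which allows up to 0.276%. These limits are on cells with a *Ret* UMI, not on cells that express *Ret*, and how well *Ret* is captured by 3' counting was not tested. The *Sox10* gate held 1 *Ret* UMI at each stage, at 0.198 CPM (0.00500–1.10) and 0.128 CPM (0.00323–0.712). The other UMIs of kept cells were 1 in a pericyte-like cell at E11.5 and 1 in a cell with both gate genes at E12.5. No annotated gene overlaps *Ret*. *Ret* was thus not detectable in the *Isl1* gate at this depth, and no split of it between glia and neurons could be read. The planned comparison of *Ret*-positive with *Ret*-negative neurons could not be made, since no *Isl1*-gate cell was *Ret*-positive.

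*Gfra1* (chromosome 19, 58223212 to 58444346, minus strand), the coreceptor for GDNF, was the most abundant of the 8 genes, with 1506 UMIs in kept E11.5 cells and 4117 in kept E12.5 cells. At E11.5 it stood at 223 CPM (209.8–236) in the *Sox10* gate and 61.8 CPM (52.1–72.8) in the *Isl1* gate. At E12.5 it stood at 329 CPM (316–342) and 61.5 CPM (56.5–66.9). *Gfra1* was therefore 3.60 times (3.02–4.31) and 5.34 times (4.87–5.86) higher in glia. Cells with both gate genes lay in between, at 127 CPM at E11.5 and 191 CPM at E12.5.

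*Gfra2* (chromosome 14, 71127472 to 71217280, plus strand), the coreceptor for neurturin, was less abundant and more strongly divided. In the *Sox10* gate it reached 47.2 CPM (41.4–53.6) at E11.5 and 65.0 CPM (59.5–70.9) at E12.5. The *Isl1* gate held 6.44 CPM (3.61–10.6) and 3.54 CPM (2.42–4.99), so that glia were 7.33 times (4.36–13.3) and 18.4 times (12.9–27.2) higher. Of the 29 *Isl1*-gate cells with *Gfra2* at E12.5, 14 lay in glia-like and 12 in neuron-like clusters.

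*Gfra3* (chromosome 18, 34822951 to 34853440, minus strand), the coreceptor for artemin, was the most divided of the 3 at E11.5. It stood at 35.6 CPM (30.6–41.2) in the *Sox10* gate against 1.72 CPM (0.468–4.40) in the *Isl1* gate, which held 4 of its UMIs. At E12.5 the values were 87.4 CPM (80.9–94.2) and 14.0 CPM (11.7–16.7). The ratio in favour of glia was 20.7 (7.95–76.8) in the E11.5 library and 6.23 (5.14–7.58) in the E12.5 library, and the second *Gfra3* site was a small group of neurons described later.

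*Gfra4* (chromosome 2, 130881552 to 130885008, minus strand), the coreceptor for persephin, had only 8 UMIs in the E11.5 library and 40 in the E12.5 library. In the latter the gates held 12 UMIs each, at 1.53 CPM (0.792–2.68) in the *Sox10* gate and 1.33 CPM (0.685–2.32) in the *Isl1* gate, with a ratio of *Isl1* to *Sox10* gate of 0.865 (0.355–2.11). The highest level was in neither gate: the mesenchymal-like cluster held 14 of the 40 UMIs, at 13.4 CPM.

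**Figure D1:**
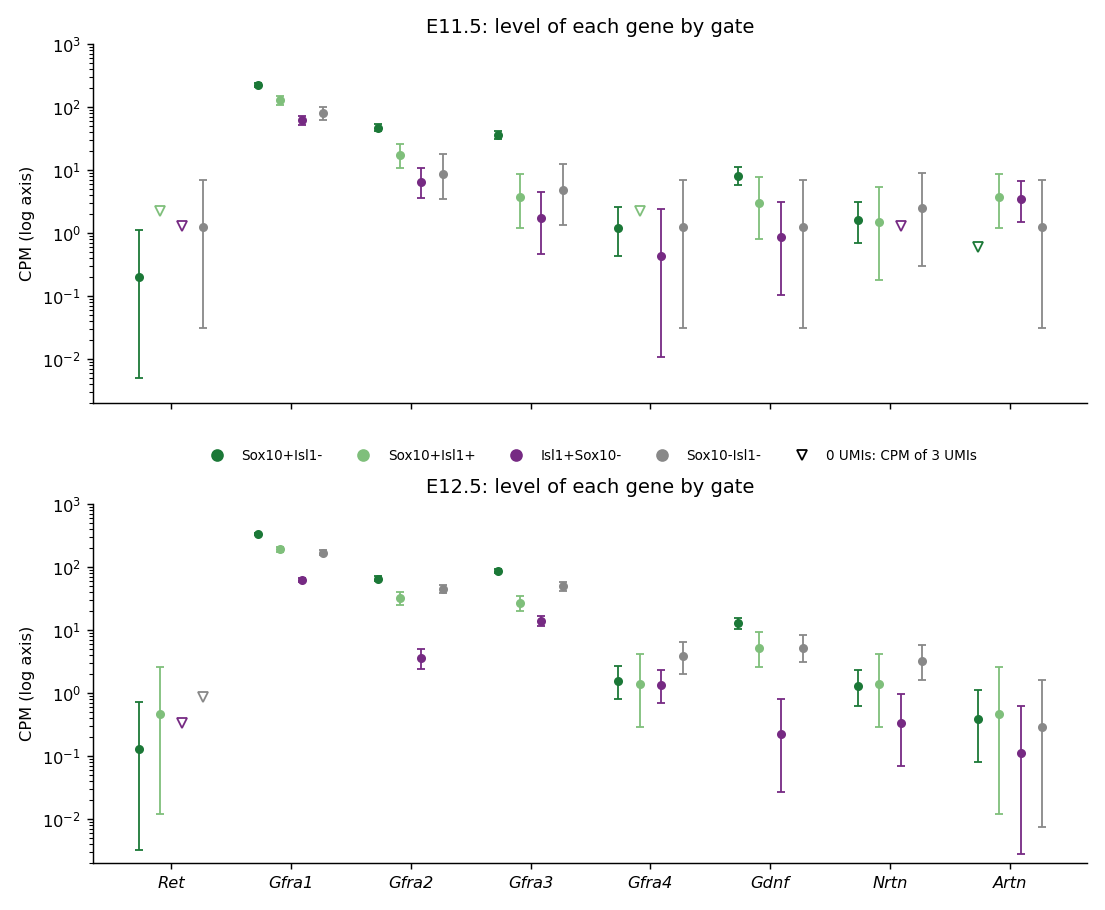
Level in CPM (log axis) of the 8 genes in the 4 groups of cells set by *Sox10* and *Isl1*, at E11.5 (top) and E12.5 (bottom). Points are sums over cells, bars are exact Poisson 95% intervals, and open triangles mark groups with 0 UMIs at the CPM that 3 UMIs would make. *Gfra1*, *Gfra2*, *Gfra3* and *Gdnf* are highest in Sox10+Isl1- cells at both stages, *Ret* has 0 UMIs in Isl1+Sox10- cells, and *Artn* at E11.5 has 0 UMIs in Sox10+Isl1- cells.

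The same ratio was computed for every gene with 20 or more UMIs over both gates, which were 11647 genes at E11.5 and 14107 at E12.5. Of these, 18% were at least 2-fold higher in the *Sox10* gate at E11.5 and 21.3% at E12.5, while 11.1% and 13.2% were at least 2-fold higher in the *Isl1* gate. Of the 8 genes, 4 had enough UMIs at E11.5 (*Gfra1*, *Gfra2*, *Gfra3* and *Gdnf*) and all 4 were past the 2-fold mark on the glial side. At E12.5 there were 5, of which the same 4 were past it on the glial side and *Gfra4* was past it on neither. None was past the mark on the neuronal side. Their median ratio of *Isl1* to *Sox10* gate was 0.121 at E11.5 and 0.161 at E12.5, beside 0.912 and 0.905 over all genes. *Gfra2*, *Gfra3* and *Gdnf* reached 20 UMIs at E11.5 only through the *Sox10* gate, with 15, 4 and 2 UMIs in the *Isl1* gate. So did *Gdnf* at E12.5, with 2. *Artn*, with 8 UMIs in the *Isl1* gate and 0 in the *Sox10* gate at E11.5, did not reach 20. These counts and medians of the family therefore depend in part on the filter.

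**Figure D2:**
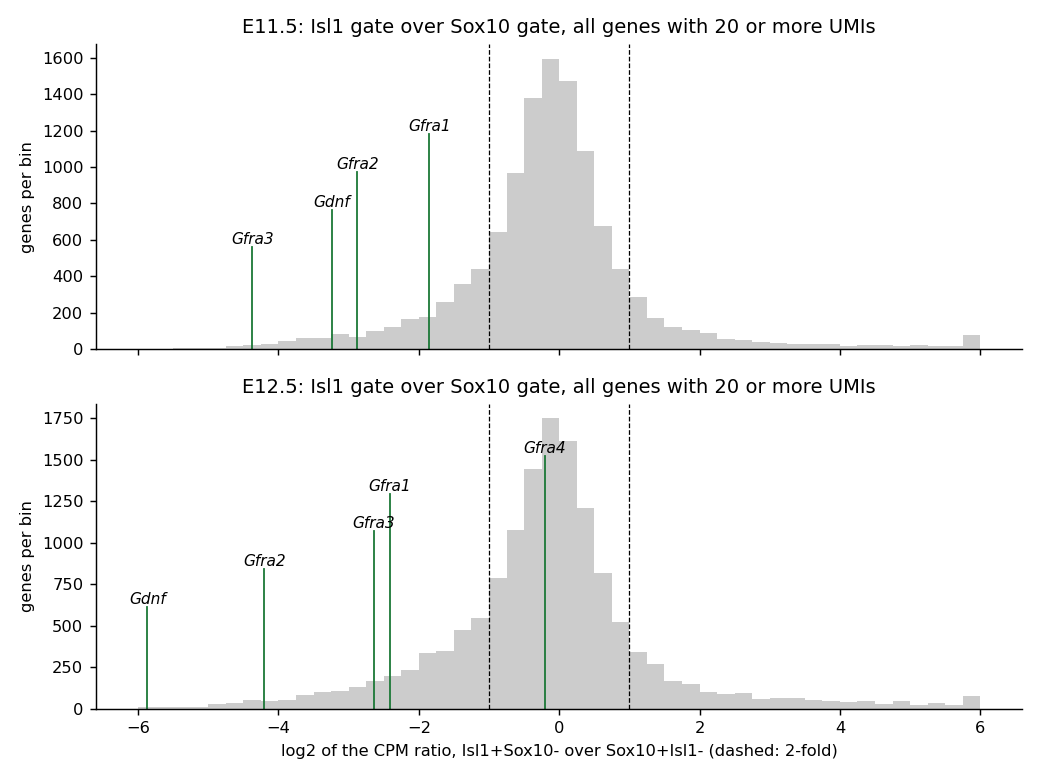
Distribution of the log2 CPM ratio of the *Isl1* gate over the *Sox10* gate for all genes with 20 or more UMIs at E11.5 (top) and E12.5 (bottom), with the GDNF family genes as green lines whose height carries no value. The end bins also hold genes beyond the axis. *Gfra1*, *Gfra2*, *Gfra3* and *Gdnf* lie left of the dashed 2-fold line at both stages, and *Gfra4* lies between the lines at E12.5.

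Counted by cell, *Gfra1* was found in 80.9% (76.7–84.6) of E11.5 and 74.9% (72.3–77.3) of E12.5 cells of the *Sox10* gate. In the *Isl1* gate these shares were 42.9% (36.0–49.97) and 29.0% (26.6–31.5). Detection depends on depth, so each cell was also thinned to 2000 UMIs, which kept all cells of both gates at E11.5, and 1175 of 1213 and 1291 of 1337 at E12.5. The thinned shares were 35.6% (31.0–40.4) and 45.8% (42.9–48.7) in the *Sox10* gate, and 10.3% (6.52–15.4) and 9.84% (8.27–11.6) in the *Isl1* gate. Pericyte-like and myeloid-like cells were taken as a guide to background, though whether they lack these genes was not tested. *Gfra1* was seen in 1 of 61 pericyte-like cells (median 8252 UMIs) of the E11.5 library. In the E12.5 library it was seen in 2 of 41 pericyte-like cells (median 6863) and 0 of 36 myeloid-like cells (median 8760), of which 3 cells would be 8.33%. The share of *Gfra1* in neurons was above that in pericyte-like cells at both stages.

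*Gfra2* was seen in 36.6% (31.9–41.4) and 29.2% (26.6–31.8) of *Sox10*-gate cells, which thinning brought to 7.26% and 11.9%. In the *Isl1* gate it was seen in 4.93% (2.39–8.87) and 2.17% (1.46–3.10), against 1 of 61 and 3 of 41 pericyte-like cells and 4 of 36 myeloid-like cells. At E11.5 the interval of the pericyte-like share, 0.0415–8.80%, overlaps that of the gate. At E12.5 the share in the gate was no higher than in those other cells. Whether these shares are background was not tested. *Gfra3* was seen in 22.0% (18.1–26.3) and 26.9% (24.4–29.5) of *Sox10*-gate cells, or 6.30% and 13.7% after thinning. Its share in the *Isl1* gate was 1.97% (0.539–4.97) at E11.5, where 1 of 61 pericyte-like cells also had it. At E12.5 the share was 5.01% (3.90–6.32), against 0 of 41 pericyte-like cells, of which 3 cells would be 7.32%, and 1 of 36 myeloid-like cells. Those E12.5 cells were not spread evenly, since 18 and 31 of the 67 lay in a pair of neuron-like clusters of 22 and 248 cells.

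Most glia held at least 1 coreceptor transcript. At least 1 of *Gfra1*, *Gfra2* and *Gfra3* was seen in 88.9% of E11.5 and 83.5% of E12.5 cells of the *Sox10* gate. The commonest state was exactly 1 of them, in 49.2% and 47.2% of cells, followed by 2 in 28.8% and 25.1% and all 3 in 10.9% and 11.1%. In the *Isl1* gate at least 1 was seen in 45.3% and 32.8% of cells, and all 3 in 0.985% and 0.299%. *Ncam1*, the partner of GFRA1 that does not need RET, was present in both kinds of cell, at 228 CPM in the *Sox10* gate and 332 CPM in the *Isl1* gate at E11.5, and at 491 and 552 CPM at E12.5. It was seen in 90.1% and 89.4% of the *Gfra1*-positive *Sox10*-gate cells and in 82.8% and 84.5% of the *Gfra1*-positive *Isl1*-gate cells, beside 87.2% and 87.4% of all *Sox10*-gate cells and 85.2% and 82.6% of all *Isl1*-gate cells. *Ncam1* is named here after its values were seen.

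Clusters of cells, built without the 8 genes and without *Sox10* and *Isl1*, were used to see how evenly each coreceptor was spread. *Gfra1* was present in every glia-like cluster, from 118 to 268 CPM over 6 clusters at E11.5 and from 184 to 471 CPM over 6 clusters at E12.5. In neuron-like clusters it ran from 33.5 to 78.2 CPM over 4 clusters and from 36.5 to 93.5 CPM over 7 clusters. One glia-like cluster of E11.5 was shallow, with a median of 2827 UMIs per cell, and was led by the globin gene *Hbb-y*. *Gfra2* ran from 11.004 to 79.4 CPM and from 31.5 to 135 CPM in glia-like clusters, with its highest value in the E12.5 cluster with *Dkk2* and *Mal* among its leading genes. In neuron-like clusters *Gfra2* went no higher than 9.06 and 7.53 CPM.

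*Gfra3* was much less even. At E11.5 a single glia-like cluster, with *Egfl8* and *Sfrp1* among its leading genes, held 166 of the 193 *Gfra3* UMIs at 92.8 CPM. At E12.5 the *Dkk2* and *Mal* cluster was highest at 215 CPM, followed by 132 and 124 CPM in the pair of clusters with *Prss56* and *Col20a1* among their leading genes. The other 3 glia-like clusters were between 9.70 and 19.8 CPM. One neuron-like cluster of 22 cells stood at 203 CPM, while another was at 27.2 CPM and the remaining 5 at 4.14 CPM or below.

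**Figure D3:**
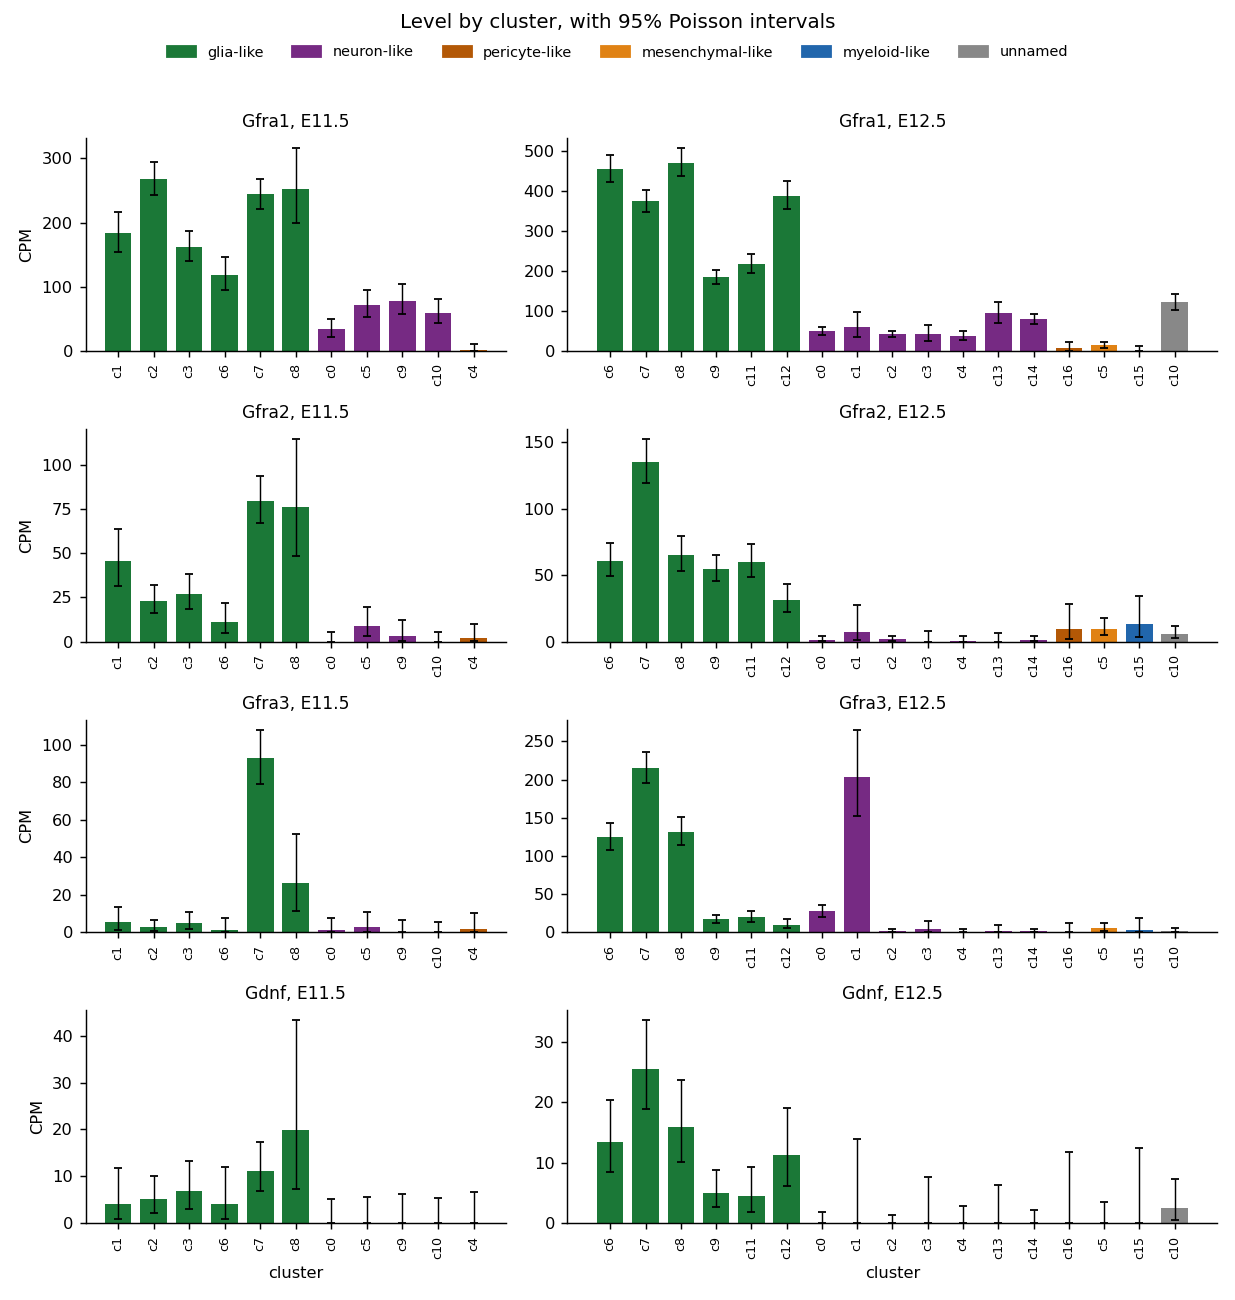
Level in CPM of *Gfra1*, *Gfra2*, *Gfra3* and *Gdnf* in each cluster of E11.5 and E12.5 cells, with bars coloured by the class of the cluster and exact Poisson 95% intervals. *Gfra1* is present in all glia-like clusters (118 to 268 CPM at E11.5, 184 to 471 CPM at E12.5), while *Gfra3* is concentrated in a few of them. Among neuron-like clusters at E12.5 the level of *Gfra3* is highest in 1, at 203 CPM.

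To relate the coreceptors to glial states, *Sox10*-gate cells were divided by whether they had a UMI of another gene. Cells with *Itga4*, an integrin subunit that the study takes as a marker of the hub state of nerve-associated Schwann cell precursors (105 of 413 E11.5 cells and 159 of 1213 E12.5 cells), held *Gfra3* at 61.8 and 155 CPM, against 25.0 and 75.4 CPM in cells without it. The ratio was 2.47 (1.83–3.35) and 2.06 (1.73–2.44), in a split in which 1.76% and 1.54% of all tested genes were at least 2-fold higher in the *Itga4*-positive cells. *Gfra2* was 1.37 times (1.03–1.79) and 1.31 times (1.04–1.64) higher in the *Itga4*-positive cells. *Gfra1* was nearly even, at 0.994 (0.871–1.13) and 1.14 (1.02–1.26). The *Itga4*-positive cells were deeper, with medians of 13824 against 12302 UMIs and 6960 against 5948, and the part of depth was not tested. The study also names *Sox8* as a hub state marker, and its split was weaker. Over it *Gfra3* was at 1.64 (1.13–2.33) at E11.5 and 1.18 (0.934–1.47) at E12.5, where the interval includes 1. *Gfra2* was at 1.11 and 1.16 over the *Sox8* split, with intervals that include 1. At E12.5 a higher *Gfra3* was thus clear in the *Itga4* split and not in the *Sox8* split. *Sox8* was, however, among the leading genes of a cluster in the *Prss56* and *Col20a1* pair described above.

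*Prss56*, a gene of boundary cap cells, went with *Gfra1*. Cells with *Prss56* held *Gfra1* at 279 and 471 CPM, against 196 and 267 CPM in cells without it, a ratio of 1.42 (1.26–1.61) and 1.76 (1.63–1.91). *Egr2*, the gene that drives the Cre, gave 1.37 (1.21–1.55) and 1.66 (1.52–1.81). Over the same *Prss56* split *Gfra3* was at 0.770 (0.542–1.08) and 0.881 (0.741–1.04), and these intervals include 1. The *Egr2* split differed from this at E12.5, with *Gfra3* at 0.998 (0.711–1.38) at E11.5 and 1.34 (1.11–1.61) at E12.5. Cells with *Prss56* had medians of 13757 against 11913 UMIs at E11.5 and 5698 against 6222 at E12.5. Cells with *Egr2* had medians of 14978 against 11864 and 6491 against 6011. The part of depth in these ratios was not tested.

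*Sox10*-gate cells with *Hes5* or *Neurog1* held less *Gfra3*. Among the 37 *Sox10*-gate cells with *Hes5*, a Notch target of progenitors, none of the 180 *Gfra3* UMIs was found at E11.5. The level was thus at least 5.69-fold higher in cells without *Hes5* (the lower exact 95% limit, as for every fold bound against 0 UMIs). At E12.5 the ratio of cells with to without *Hes5* was 0.0815 (0.0371–0.156), while 8.26% and 8.27% of all tested genes were at least 2-fold lower in that split at the earlier and the later stage. Cells with *Neurog1*, a factor of sensory neuron formation, gave 0.310 (0.157–0.557) at E11.5 and 0.0446 (0.00918–0.131) at E12.5, where they held 3 *Gfra3* UMIs, in a split with 6.44% and 12.7% of tested genes at least 2-fold lower. *Gfra1* was lower by less, at 0.791 (0.635–0.976) and 0.629 (0.548–0.718) for *Hes5*.

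**Figure D4:**
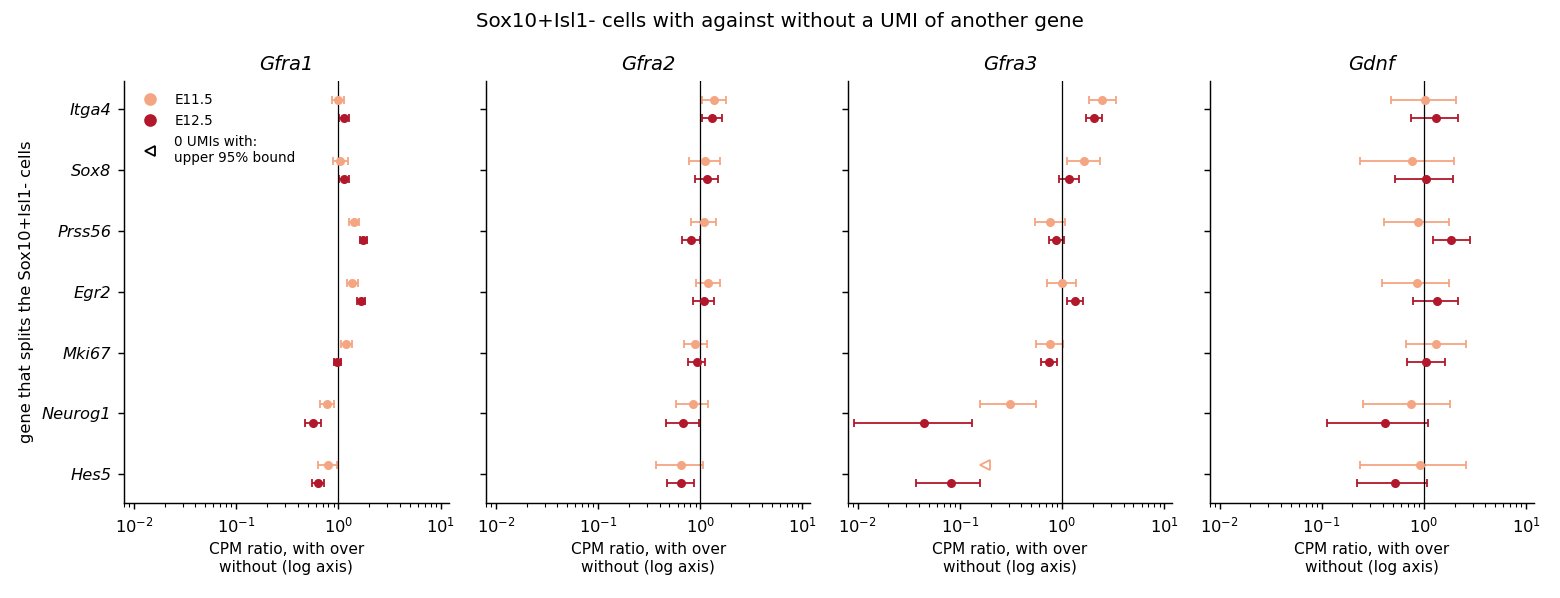
Ratio of CPM between *Sox10*-gate cells with and without a UMI of each dividing gene, for the coreceptors and *Gdnf*, on a log axis with exact 95% intervals, in paler (E11.5) and darker (E12.5) points. The triangle marks an upper bound where cells with the gene held 0 UMIs. *Gfra3* lies above 2 for *Itga4* at both stages and below 0.1 for *Hes5* at E12.5, and *Gfra1* lies nearer to 1 than *Gfra3* in both of those splits.

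Glia with *Gfra3* held more *Gfra2*. The 91 and 326 *Gfra3*-positive cells of the *Sox10* gate held *Gfra2* at 84.1 and 108 CPM, against 35.5 and 48.0 CPM in *Gfra3*-negative cells, a ratio of 2.37 (1.82–3.09) and 2.24 (1.88–2.68), where 3.38% and 1.99% of tested genes were at least 2-fold higher. *Gdnf* was at 13.1 and 20.1 CPM against 6.52 and 10.0 CPM, a ratio of 2.004 (0.9996–3.90) and 2.003 (1.32–3.02). *Gfra1* differed little, at 0.996 (0.866–1.14) and 1.22 (1.13–1.33). *Gfra3*-positive cells were also somewhat deeper, with medians of 13144 against 12263 UMIs at E11.5 and 6459 against 5898 at E12.5, and the part of depth in these ratios was not tested. The divisions by family members were chosen after their values were seen.

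In neurons *Gfra3* was found mostly in a small group at E12.5. The *Isl1* gate had 67 *Gfra3*-positive cells, of which 59 lay in neuron-like clusters, 49 of them in the pair of clusters highest in *Gfra3*, and 7 in glia-like clusters. This division was chosen after the *Ret* comparison proved empty, and in it 12.1% of all tested genes were at least 2-fold higher and 10.2% at least 2-fold lower in *Gfra3*-positive cells, whose median depth was 9791 against 6421 UMIs. *Runx1*, a factor of nociceptor identity, stood at 75.9 CPM in *Gfra3*-positive against 2.15 CPM in *Gfra3*-negative cells, a ratio of 35.4 (20.3–64.4). *Prph*, an intermediate filament of small sensory neurons, stood at 414 against 2.74 CPM, a ratio of 151 (98.7–243). *Th*, tyrosine hydroxylase, had a ratio of 13.2 (9.65–18.1), and *Isl2*, a sister gene of *Isl1*, one of 4.34 (3.60–5.21). Genes of other identities on the list were higher too, with 26.4 (13.5–54.0) for *Runx3*, a factor of proprioceptors, and 5.52 (4.13–7.33) for *Ntrk3*, the NT-3 receptor of proprioceptors and some mechanoreceptors. *Runx1* and *Runx3* reached 20 UMIs only through the *Gfra3*-positive cells, with 18 and 14 UMIs in *Gfra3*-negative cells, so their ratios depend in part on the filter. *Prdm12*, a factor of nociceptor formation, was at 0.902 (0.609–1.29), and the sensory neuron factors *Shox2* and *Pou4f1* were at 0.737 (0.584–0.919) and 0.702 (0.626–0.785).

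The 22-cell cluster led by *Prph* carried part of this. Without it, 41 *Gfra3*-positive and 1158 *Gfra3*-negative cells of neuron-like clusters gave 12.6 (8.60–18.2) for *Th* and 4.50 (3.57–5.61) for *Isl2*. *Runx1* came to 19.2 (7.68–47.6), on only 11 and 12 UMIs, and *Prph* to 23.0 (12.1–43.6), on 23 and 21 UMIs. The *Ntrk3* excess was not seen without that cluster: it was 6.07 (4.51–8.09) in all neuron-like clusters and 0.281 (0.0338–1.03) without that one, where *Gfra3*-positive cells held 2 *Ntrk3* UMIs and the interval includes 1. *Runx3* then had 6 UMIs in *Gfra3*-positive and 10 in *Gfra3*-negative cells, too few for a ratio.

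**Figure D5:**
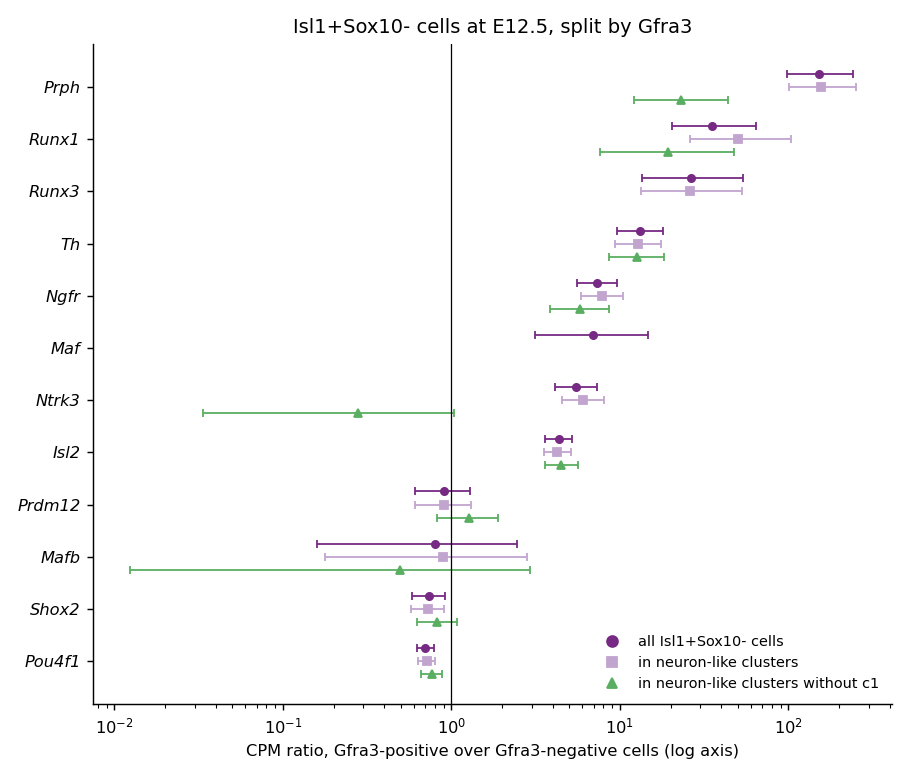
Ratio of CPM between *Gfra3*-positive and *Gfra3*-negative cells of the *Isl1* gate at E12.5 for genes of sensory neuron subtypes, with exact 95% intervals, in all cells of the gate, in neuron-like clusters only, and in these without the cluster highest in *Gfra3*. *Isl2* stays between 4.27 and 4.50 in all of them, and *Ntrk3* moves from 5.52 to 0.281.

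*Gfra1* divided the neurons less sharply. At E11.5 the 87 *Gfra1*-positive *Isl1*-gate cells held *Ntrk3* at 105 CPM against 34.5 CPM in the 116 negative cells, a ratio of 3.03 (2.12–4.42), and *Isl2* at 58.3 against 30.5 CPM, a ratio of 1.91 (1.26–2.94). In this division 3.06% of all tested genes were at least 2-fold higher. At E12.5, where this share was 2.22%, the ratios were 1.48 (1.13–1.93) for *Ntrk3* and 0.979 (0.822–1.16) for *Isl2*. *Prph* was 2.88 times (2.27–3.66) higher in *Gfra1*-positive cells of that stage, and 1.61 times (0.832–3.05) in neuron-like clusters without the 22-cell cluster. *Gfra3* itself was 1.75 times (1.21–2.51) higher in *Gfra1*-positive cells at E12.5. Of the *Gfra1*-positive cells, 75 of 87 and 331 of 388 lay in neuron-like clusters.

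Among the ligands, *Gdnf* (chromosome 15, 7840327 to 7867060, plus strand) was a transcript of glia. It stood at 8.10 CPM (5.81–10.99) in the *Sox10* gate at E11.5 and 12.9 CPM (10.5–15.7) at E12.5, while the *Isl1* gate held 2 UMIs at each stage. The *Sox10* gate held 85.4% (72.2–93.9) of the 48 *Gdnf* UMIs at E11.5 and 76.5% (68.4–83.5) of the 132 at E12.5, beside 53.0% and 34.9% of all UMIs. By clusters the split was sharper, with 48 of 48 and 129 of 132 *Gdnf* UMIs in glia-like clusters and 0 in neuron-like clusters, which puts glia at least 5.29-fold and at least 31.2-fold higher. The other 3 lay in an unnamed cluster with *Plcb1*, *Dll1* and *Neurog1* among its leading genes. The highest *Gdnf* level at E12.5 was in the *Dkk2* and *Mal* cluster, at 25.5 CPM. *Prss56*-positive glia held *Gdnf* at 19.0 against 10.3 CPM at E12.5, a ratio of 1.85 (1.22–2.79), but at 0.877 (0.407–1.77) at E11.5. Of the *Gdnf*-positive *Sox10*-gate cells, 31 of 37 (83.8%, 67.99–93.8) and 75 of 84 (89.3%, 80.6–94.98) also had a *Gfra1* UMI. Among all *Sox10*-gate cells these shares were 80.9% and 74.9%, and the E11.5 interval includes the first of them. *Gdnf*-positive cells were also deeper, with medians of 14138 against 12439 UMIs at E11.5 and 6760.5 against 6074 at E12.5. The part of depth in this overlap was not tested.

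*Nrtn* (chromosome 17, 57058324 to 57064569, minus strand), the neurturin gene, was rare. It had 12 UMIs at E11.5, of which 8 were in the *Sox10* gate and 0 in the *Isl1* gate, and 27 at E12.5, of which 10 and 3 were. At E12.5 the mesenchymal-like cluster was at 7.68 CPM (3.32–15.1) with 8 UMIs, against 1.46 CPM (0.816–2.40) over the glia-like clusters with 15.

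*Artn* (chromosome 4, 117783113 to 117786993, minus strand), the artemin gene, was the one member on the neuronal side at E11.5. It had 14 UMIs, of which 0 lay in the *Sox10* gate. The *Isl1* gate held 8, at 3.44 CPM (1.48–6.77), and cells with both gate genes held 5. By clusters, 10 lay in neuron-like and 3 in glia-like clusters. With fewer than 20 UMIs over both gates, *Artn* was given no ratio and was not among the genes counted above. The highest value was 10.2 CPM, with 6 UMIs, in the neuron-like cluster with *Insm1* and *Neurog1*, genes of newly forming neurons, among its leading genes. At E12.5 only 6 *Artn* UMIs were left over 3496 cells, 3 of them in the *Sox10* gate and 1 in the *Isl1* gate. *Pspn*, the persephin gene, had 0 UMIs in the E11.5 gates and 3 in those of E12.5.

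The wider pathway was read from a list of 44 further genes of GDNF signalling. At E11.5, 34 could be compared, of which 15 were at least 2-fold higher in the *Sox10* gate, 4 in the *Isl1* gate and 15 in neither. At E12.5 the numbers were 37, 13, 5 and 19. Over all tested genes the shares were 18% and 21.3% on the glial side and 11.1% and 13.2% on the neuronal side, so the few genes of the list on the neuronal side were near that background. The list's median ratio of *Isl1* to *Sox10* gate was 0.665 and 0.684, beside 0.912 and 0.905 over all genes. Some genes of the list reached 20 UMIs through 1 gate alone. At E11.5 *Gas1*, *Sorcs2*, *Dok1*, *Dok6*, *Rap1gap*, *Etv1* and *Etv4* did so through the *Sox10* gate. Their UMIs in the *Isl1* gate were 9, 8, 6, 6, 7, 3 and 4. *Shc2* did so through the *Isl1* gate, with 13 UMIs in the *Sox10* gate. At E12.5 *Etv1* and *Spry4* did so through the *Sox10* gate, with 10 and 5 UMIs in the *Isl1* gate. *Shc2*, *Dok4*, *Dok5* and *Frs3* did so through the *Isl1* gate, with 8, 19, 16 and 16 UMIs in the *Sox10* gate. The counts and medians of the list therefore depend in part on the filter. Of the genes past the 2-fold mark in the same direction at both stages, the 8 most abundant are given. The share of all genes past it at both stages was not computed, so their split between the gates is not read as a result.

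Of these 8, 6 were higher in the *Sox10* gate. *Dusp6*, a phosphatase that turns ERK off, stood at 80.2 against 9.45 CPM at E11.5 and 84.3 against 6.19 CPM at E12.5, a ratio of 8.49 (5.53–13.7) and 13.6 (10.4–18.2). *Etv5*, a transcription factor induced by GDNF in several tissues, was 4.22 times (2.71–6.89) and 2.004 times (1.63–2.47) higher in glia. *Lrig1*, a membrane protein that restrains receptor kinases including RET, was 5.13 and 7.22 times higher, and the docking protein gene *Gab1* 3.04 and 3.26 times. *Gas1*, a membrane protein related to the coreceptors, was 6.19 and 6.20 times higher, and *Sorcs2*, a sorting receptor, 7.88 and 14.0 times.

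Higher in the *Isl1* gate were *Ptprf*, the receptor phosphatase LAR, and *Shc1*, an adaptor that binds active receptor kinases. *Ptprf* stood at 229.7 CPM in the *Isl1* gate against 89.5 CPM in the *Sox10* gate at E11.5, and at 226 against 89.4 CPM at E12.5, a ratio of 2.57 (2.26–2.92) and 2.53 (2.32–2.76). *Shc1* was 2.02 times (1.46–2.78) and 2.06 times (1.70–2.51) higher in neurons. These genes also serve other receptors.

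Between the stages, the glial levels of 4 members were higher in the E12.5 library. In the *Sox10* gate the ratio of E12.5 to E11.5 was 1.48 (1.38–1.58) for *Gfra1*, 1.38 (1.18–1.61) for *Gfra2*, 2.46 (2.08–2.91) for *Gfra3* and 1.59 (1.10–2.35) for *Gdnf*. Of these only *Gfra3* passed the 2-fold mark there, as did 10% of all tested genes, while 1.92% of genes were at least 2-fold lower. In the *Isl1* gate *Gfra1* was level, at 0.995 (0.827–1.20). *Gfra3* was 8.17 times (3.11–30.4) higher at E12.5, from 4 to 127 UMIs, where 9.79% of all tested genes were at least 2-fold higher. *Gfra2* was at 0.549 (0.289–1.09).

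Finally, the genes whose levels over all 28 clusters of both libraries were most like those of each coreceptor were named by Pearson's r of log2(CPM + 10) among 8456 genes. For *Gfra1* they were *Fign* (r = 0.918), *Megf9* (0.909) and *Abat* (0.908). For *Gfra2* they were *Ahr* (r = 0.946) and *Pxn* (0.928). For *Gfra3* they were *Adam23* (r = 0.915), *Kif21a* (0.870) and *Nkain2* (0.849). Among the coreceptors r was 0.704 for *Gfra1* and *Gfra2*, 0.660 for *Gfra2* and *Gfra3*, and 0.525 for *Gfra1* and *Gfra3*. Clusters of 1 library share its depth and its free RNA, so these values are descriptions.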

How the data were processed

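Sorted Tomato-positive cells were captured by the study with 10x 3' chemistry (V2). The authors made the deposited counts (UMIs per gene and cell, raw and not normalized) with Cell Ranger against mm39, and the matrix headers give version 7.0.1. Strand and intron settings are not given in the sources used here. E11.5 held 1431 barcodes with 10287595 UMIs and E12.5 held 3762 with 23460243, and 9 barcode sequences occurred in both libraries.

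From these counts, cells with over 10% mitochondrial UMIs, under 2000 (E11.5) or 1000 (E12.5) UMIs, or a Scrublet doublet score of 0.2 or more were removed, leaving 833 and 3496 cells with medians of 11601 and 6140 UMIs. Clusters (scanpy 1.11.5, Leiden, 3000 variable genes, 30 components, 15 neighbours) were named from marker lists. UMIs were summed per group and given as CPM. Ratios were counted where the groups held 20 or more UMIs, and called at 2-fold. With 1 library per stage there were no replicates, no test and no covariate. Intervals are exact at 95% (scipy 1.17.1) and cover counting error only. On simulated counts 95.7% of intervals held the true ratio over 11621 genes for the E11.5 gates and 95.7% over 14124 for the E12.5 gates. The simulated counts were Poisson totals of each gate without spread between cells, which is the case the interval assumes. This checked the computation only.

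Named genes were the 8 members, up to 8 pathway genes past 2-fold at both stages by UMIs, and the 3 genes most like each member. Some of the genes and sequences so chosen are not reported here. Sensory subtype genes were listed for a *Ret* division and used for *Gfra3* and *Gfra1*. Members and lists were chosen with earlier results of these data known. Alternatives were other gates, depths, filters and summaries. Other data of the study were not analysed here.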

Additional observations from a re-analysis of the deposited data

How the results depend on the processing

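*Gfra1*, *Gfra2* and *Gfra3* stayed higher in the *Sox10* gate under each alternative that gave a value. Of 63 alternative ratios, 47 stayed inside the counting interval of the reported value and 16 did not. With double-positive cells put in both gates, the ratio of *Isl1* to *Sox10* gate was 0.423 for *Gfra1* and 0.253 for *Gfra2* at E11.5, and 0.289, 0.156 and 0.221 for *Gfra1*, *Gfra2* and *Gfra3* at E12.5. The *Sox10* gate's share of UMIs was then 35.7% for *Artn* at E11.5 and 84.8% for *Gdnf* at E12.5. With 2 or more UMIs asked of the gate gene, *Gfra2* was at 0.0660 at E11.5 and 0.0276 at E12.5, *Gfra1* at 0.163 and *Gdnf* at 58.3% at E12.5. With classes from clusters, *Gfra2* was at 0.0688 and 0.0214, *Gfra1* at 0.161 at E12.5, and *Gdnf* at 100% and 97.7%. Thinned to 2000 UMIs, *Gfra2* was at 0.233 at E11.5, and *Gfra1* at 0.164 and *Gfra3* at 0.0949 at E12.5. The thinned ligand shares were 100% (*Gdnf*) and 100% (*Nrtn*) at E11.5, and 66.7% (*Gdnf*) and 100% (*Artn*) at E12.5, on few UMIs. As the mean of each cell's CPM, *Gfra2* was at 0.267 at E11.5 and *Gfra3* at 0.123 at E12.5. Over all deposited barcodes *Gdnf* was at 72.1% at E11.5. The share of *Gfra1*-positive cells (*Sox10* gate, then *Isl1* gate) moved with depth, at E11.5 20.6% and 5.91% at 1000 UMIs, 53.4% and 20.2% at 4000, 80.9% and 42.9% without thinning, and 7.99% and 0.985% at 2000 where 2 UMIs of *Gfra1* were asked. At E12.5 these were 26.5% and 5.16%, 63.6% and 19.1%, 74.9% and 29.0%, and 17.2% and 1.24%. Of 23 values for *Gfra3*-positive neurons, *Ntrk3* went from 5.52 to 0.281 (0.0338–1.03, with 2 UMIs) in neuron-like clusters without the one highest in *Gfra3*, an alternative chosen after seeing the data, and since this interval includes 1 it shows the loss of the excess and no reversed direction. The cause of these shifts was not tested.

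No paired analysis was possible because each stage had 1 library, so leaving out a replicate was not an option either. *Ret* at both stages and *Gfra4* at E11.5 had under 20 UMIs over both gates and were given no ratio, and the planned division by *Ret* was not run since 0 *Isl1*-gate cells held a *Ret* UMI.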
